A study of Mus musculus with 1 sample.

Results

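Interleukin-1 (IL-1) is a family of inflammatory cytokines that act on blood progenitors as well as on mature leukocytes. IL-1α and IL-1β bind the receptor IL-1R1, which signals together with the accessory protein IL-1RAP, while the antagonist IL-1Ra occupies the receptor without signalling and the decoy receptor IL-1R2 binds the ligands without passing a signal on. IL-1β and IL-18 are made as precursors. The inflammasome, in which the sensor NLRP3 and the adaptor ASC (gene *Pycard*) assemble with the protease caspase-1, cuts them into active cytokines. The 10 genes described here were chosen by name for these roles (*Il1a*, *Il1b*, *Il1rn*, *Il1r1*, *Il1r2*, *Il1rap*, *Il18*, *Casp1*, *Nlrp3* and *Pycard*), out of 54532 genes with a value, and all 10 were found.

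The values come from 1 RNA-seq library of bone marrow (BM) cells of Ctrl mice, which were C57BL/6 mice of wild type genotype. The cells were sorted for c-kit, the receptor of stem cell factor carried by stem and progenitor cells, and the labels add that cells with lineage markers or Sca-1 were gated out. The study set them against c-kit+ BM cells of *Gadd45g*-deficient mice with a myeloproliferative neoplasm (MPN), which were heterozygous (*Gadd45g*+/-), with 1 allele deleted in blood cells by Cre under the Vav promoter. That group was not analysed here, so no gene is described as changed. The age and number of the Ctrl mice, any pooling and whether they carried Cre or a floxed allele are not given for the library in the sources used here. There are no replicates, and levels are in FPKM, a fragment count scaled to gene length and sequencing depth. FPKM values times the gene's exon length were whole multiples of 1 common step for all 10 genes, which gave the number of fragments behind each value. The size of the step means that the values had been divided by a total of 15783891 fragments. This is below the 17113323 fragments recovered over all genes, and also below the 15899824 recovered over the genes with whole multiples. Whether it is the number of fragments in the library was not tested. How that total was set is not given in the sources used here. Intervals are 95% Wilson intervals on those fragments. They cover counting error only and hold nothing of the difference between mice.

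The sorted cells carried the transcript of their sorting marker and also transcripts of the neutrophil and monocyte lineages. *Kit* had 7.17 FPKM (6.74 to 7.62). All 6 markers of granulocyte-macrophage progenitors (GMP) and all 6 of megakaryocyte-erythroid progenitors (MEP) and early erythroid cells reached 1 FPKM, led by *Mpo* at 434 and *Car1* at 205 FPKM. None of 6 markers of hematopoietic stem cells (HSC) did, the highest being *Hlf* at 0.844 FPKM. The paper gates HSCs as positive for Sca-1, and the labelled gate leaves out cells with Sca-1. All 11 markers of the neutrophil lineage, which do not separate mature neutrophils from their precursors, reached 1 FPKM too. They had a summed level of 54098 FPKM, led by the calcium-binding protein gene *S100a9* at 26677 FPKM. All 8 markers of monocytes and macrophages also reached 1 FPKM. These summed to 242 FPKM and were led by *Csf1r* at 51.5 FPKM. The labelled gate leaves out cells with lineage markers, and these values go against that label for the RNA. In a bulk library, many cells with little of a transcript and few cells with much of it cannot be told apart.

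Of the 10 genes, 9 reached 1 FPKM, where 22.2% of all genes and 46.8% of the protein-coding genes did. At 10 FPKM the count was 5 of 10 (9.37% of all genes, 21.2% of protein-coding genes), and at 0.1 FPKM it was 10 of 10 (32.9% and 59.1%). Their median was 11.1 FPKM, beside 1.77 FPKM over all genes above 0 and 4.22 FPKM over the protein-coding genes above 0. By coding length the medians were 23.6 FPKM for the 10 genes and 13.0 FPKM for the protein-coding genes above 0. The levels spread widely, and the highest gene, *Il1b*, had 192 times the level of the lowest, *Il1a*. By exon length *Il1b* alone made up 55.6% of the summed level of the 10 genes. In fragments not divided by length it had 3708 of their 8523. In order of level the genes ran *Il1b*, *Il1r2*, *Casp1*, *Nlrp3*, *Il1rn*, *Pycard*, *Il18*, *Il1rap*, *Il1r1* and *Il1a*. For each of the 9 pairs of neighbours in this order, the counting interval of their ratio left out 1, the closest pair being *Nlrp3* and *Il1rn* with a ratio of 1.12 (exact interval, 1.03 to 1.22). These intervals leave out the variation among animals, which a single library does not give. The top and bottom of the order held with other gene lengths, since *Il1b* was the highest and *Il1a* the lowest with exons, the longest transcript or the coding length as the divisor. The middle of the order did not hold.

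**Figure D1:**
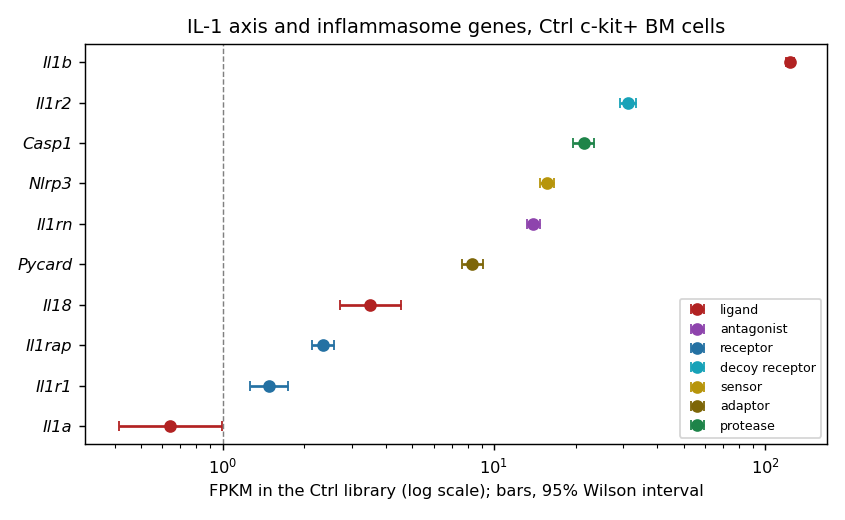
FPKM (log axis) of the 10 genes in the Ctrl library, ordered by level and coloured by role, with 95% Wilson intervals of counting error and a dashed line at 1 FPKM. *Il1b* stands apart at 123 FPKM, and *Il1a* at 0.642 FPKM is the only gene left of the line.

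**Figure D2:**
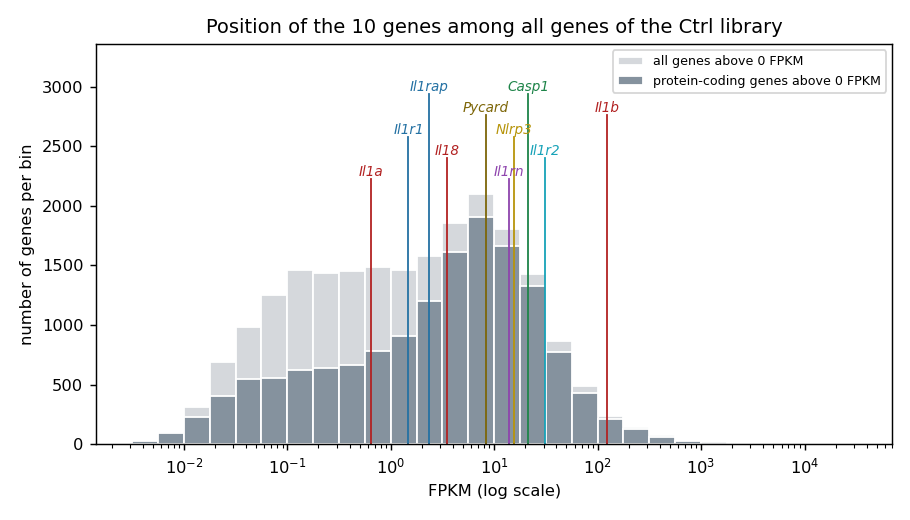
Number of genes per bin of FPKM (log axis) for all genes and for protein-coding genes above 0 FPKM, with a coloured line at the level of each of the 10 genes. *Il1b* lies in the right tail, while 4 of the 10 genes (*Il1a*, *Il1r1*, *Il1rap* and *Il18*) lie below 4.22 FPKM, the median of protein-coding genes above 0.

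Among the agonist ligands, *Il1b* was high and *Il1a* low. *Il1b* (ENSMUSG00000027398, in GRCm38, as all positions here, chr2:129364570-129371139, reverse strand) had 123 FPKM from 3708 fragments (119 to 127). Its level was reached by 421 genes in all and exceeded that of 98.3% of the protein-coding genes. *Il1a* (ENSMUSG00000027399) lies 54.6 kb further along the reverse strand, from 129299610 to 129309972, and reached a level of 0.642 FPKM from 20 fragments (0.416 to 0.992). The ratio of *Il1b* to *Il1a* was 192 (exact interval, 124 to 315). This was the largest difference within the axis, between neighbouring genes whose products bind the same receptor. Exons of *Il1a* share 222 bases with the gene Gm14023 on the other strand, which had 22 fragments. Since the use of strand in counting is not given, fragments that fall in these bases, out of 1974 in *Il1a*, cannot be told apart between the genes. The antisense gene *Il1bos* shares 25 exon bases with *Il1b* and had 13 fragments.

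The 250 bases before the start sites of this gene pair are shown because their levels differ most, as RefSeq gives them for GRCm38.p6 on the reverse strand of chromosome 2 and read 5′ to 3′ toward the gene. Capitals mark matches, on either strand, to the TATA box (TATAAA), the core bound by the myeloid factor PU.1 (GAGGAA), the C/EBP motif (TTNNGNAAT) and the NF-kB motif.
*Il1b* chr2:129371140-129371389: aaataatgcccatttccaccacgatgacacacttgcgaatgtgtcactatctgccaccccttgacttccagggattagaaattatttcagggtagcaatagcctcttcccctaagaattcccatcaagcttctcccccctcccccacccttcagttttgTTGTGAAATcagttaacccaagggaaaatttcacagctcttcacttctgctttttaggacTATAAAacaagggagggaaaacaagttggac
*Il1a* chr2:129309973-129310222: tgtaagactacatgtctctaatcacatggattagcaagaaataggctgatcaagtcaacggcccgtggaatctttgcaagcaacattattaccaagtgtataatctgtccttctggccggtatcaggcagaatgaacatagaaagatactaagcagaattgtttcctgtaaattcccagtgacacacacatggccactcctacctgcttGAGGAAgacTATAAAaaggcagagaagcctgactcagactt
Both windows hold a TATA box, which starts 31 bases before the start site in *Il1b* and 32 bases before it in *Il1a*. Of 32851 RefSeq promoters of the same length, 12.4% hold this motif. The *Il1b* window also holds a C/EBP motif, as 10.2% of promoters do, and the *Il1a* window a PU.1 core, as 23.3% do. Neither window holds the NF-kB motif, which 3.90% of promoters do. The matches do not overlap each other, and a match is a run of letters, not a bound site.

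*Il18*, the other cytokine gene of the 10 whose product caspase-1 cuts, was low. *Il18* (ENSMUSG00000039217, chr9:50554827-50581840, forward strand) had 3.50 FPKM from 57 fragments (2.70 to 4.54), so that *Il1b* was 35.2 times as high (exact interval, 27.1 to 46.5), or 65.1 times in fragments not divided by length. *Il18bp*, whose secreted product binds and neutralises IL-18, had 5.13 FPKM (4.53 to 5.81). This was 1.46 times the level of *Il18* (1.09 to 1.99), and 4.25 times by coding length.

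Of the 6 other ligand genes of the family, only *Il36g* reached 1 FPKM, where 46.8% of the protein-coding genes did. *Il36g* was above it by a wide margin. *Il36g* encodes IL-36γ, an agonist of a separate receptor that also uses IL-1RAP. It is named *Il1f9* in the annotation and had 68.2 FPKM from 1773 fragments (65.1 to 71.4), more than every one of the 10 genes except *Il1b*, which was 1.81 times as high (1.71 to 1.91). *Il33*, the ligand of ST2, had 0.220 FPKM from 10 fragments. *Il36a*, *Il36b*, *Il36rn* and *Il1f10* are listed at 0, and 3 fragments, the limit that a count of 0 allows, would be 0.215, 0.156, 0.0423 and 0.353 FPKM. The receptor gene for IL-36, *Il1rl2*, had 1.58 FPKM (1.36 to 1.84).

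The level of the receptor antagonist lay between those of the agonist genes, below *Il1b* and above *Il1a*. *Il1rn* (ENSMUSG00000026981, chr2:24336853-24351494, forward strand) had 14.0 FPKM from 1221 fragments (13.2 to 14.8). The ratio of *Il1b* to *Il1rn* was 8.81 (exact interval, 8.26 to 9.41), but its size rests on the length used. The exons of *Il1rn* cover 5535 bases over 6 annotated transcripts, while its longest coding sequence has 534 bases, and by coding length the ratio was 2.01. *Il1b* was the higher of the pair under each of the lengths tried. *Il1rn* was in turn 21.8 times as high as *Il1a* (14.0 to 35.8), and more so with each other length. *Il1rn* makes a secreted and intracellular forms from separate start sites, and a gene-level value does not tell them apart. The gene lies 104948 kb from *Il1a* on the same chromosome, and its nearest family neighbours are the IL-36 ligand genes and *Il1f10*.

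The receptors were led by the decoy. *Il1r2* (ENSMUSG00000026073, chr1:40074079-40125231, forward strand) had 31.2 FPKM from 939 fragments (29.2 to 33.2). *Il1r1* (ENSMUSG00000026072), the signalling receptor, lies 99.8 kb further on, from 40225080 to 40317257, and had 1.48 FPKM from 149 fragments (1.26 to 1.74). The decoy was thus 21.0 times as high as the signalling receptor (exact interval, 17.7 to 25.2), and the ratio was from 6.30 to 25.8 with other lengths or none. *Il1rap* (ENSMUSG00000022514, chr16:26581704-26730117, forward strand) had 2.34 FPKM from 420 fragments (2.13 to 2.58). It was 1.58 times the level of its partner *Il1r1* (1.31 to 1.92), and 3.63 times by the longest transcript and 2.37 times by coding length. Both signalling chains were below *Kit* by each length, as were *Il18* and *Il1a*. By exon length the other 6 genes were above *Kit*, but *Pycard* was below it by the longest transcript and *Nlrp3* by coding length, and 2 genes, *Il1b* and *Il1rn*, had more fragments than *Kit*. *Il1rap* also encodes a soluble form by an alternative end, which these values do not separate, and 552 of its 11360 exon bases are shared with an antisense gene listed at 0.

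*Il1r2* and *Il1r1* are the start of a run of 6 receptor genes of the family, all on the forward strand within 478 kb. The levels along it were uneven. *Il18rap*, the accessory chain of the IL-18 receptor, had 17.7 FPKM (16.9 to 18.5) at the far end, and *Il18r1*, its ligand-binding chain, had 4.37 FPKM (3.92 to 4.86). The accessory chain was 4.06 times as high as its partner (3.61 to 4.57). By coding length *Il18rap*, at 64.9 FPKM, was above *Il1r2*, at 48.4 FPKM. *Il1rl1*, which encodes the IL-33 receptor ST2, had 4.82 FPKM (4.43 to 5.26). Outside this run, *Sigirr*, an inhibitory receptor of the family, had 5.64 FPKM (5.01 to 6.36). *Il1rapl1* and *Il1rapl2*, known from neurons, are both listed at 0, with limits of 0.0203 and 0.0405 FPKM. In all, 6 of the 8 other receptor and soluble inhibitor genes reached 1 FPKM, where 46.8% of the protein-coding genes did. The median of the 8 was 4.60 FPKM.

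**Figure D3:**
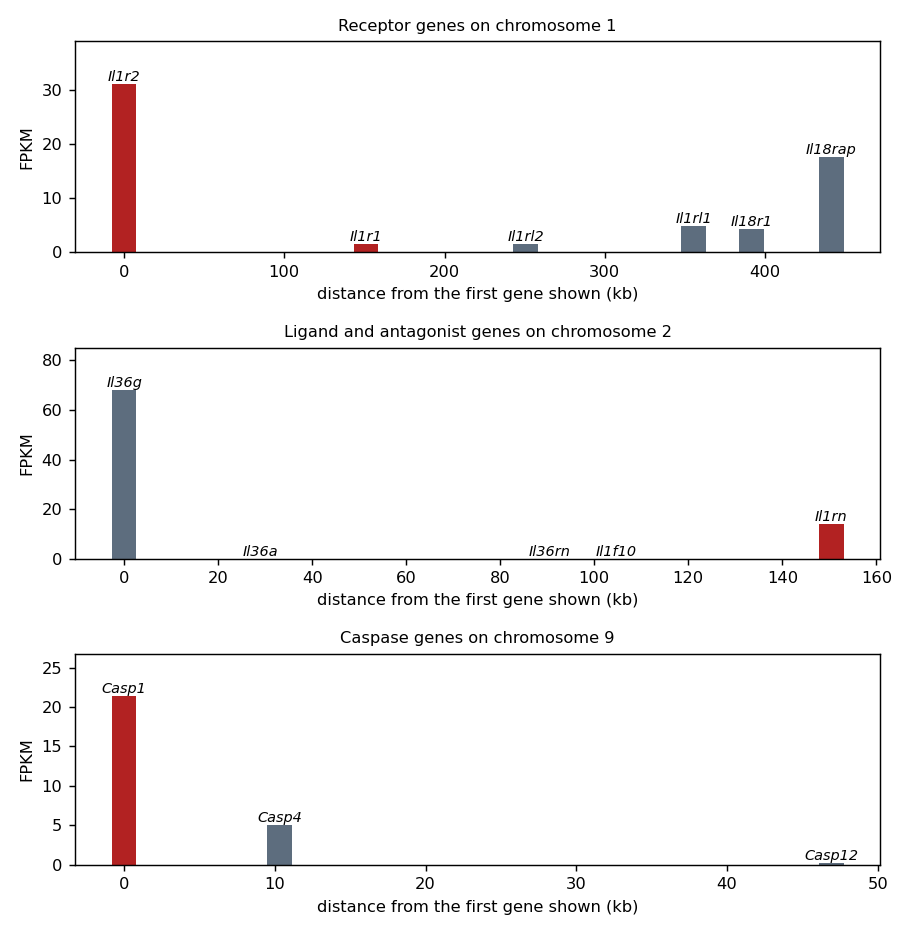
FPKM (bars, linear axes from 0) of neighbouring genes against the distance of their starts from the first gene shown (kb), with genes of the 10 in red and other IL-1 family or caspase genes in grey; bar widths carry no meaning. *Il1r2* at 31.2 FPKM stands beside *Il1r1* at 1.48 FPKM and *Casp1* at 21.4 FPKM beside *Casp4* at 5.04 FPKM, while the genes between *Il36g* and *Il1rn* are all at 0.

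The inflammasome genes had a narrower range than the cytokines. *Casp1* (ENSMUSG00000025888, chr9:5298517-5307265, forward strand) had 21.4 FPKM from 506 fragments (19.6 to 23.4). *Nlrp3* (ENSMUSG00000032691, chr11:59541568-59566956, forward strand) had 15.7 FPKM from 1004 fragments (14.7 to 16.7). *Casp1* was 1.37 times as high as *Nlrp3* (exact interval, 1.22 to 1.52). *Nlrp3* had more fragments than *Casp1*, on exons of 4057 against 1497 bases, so that the order holds per length only. *Pycard* (ENSMUSG00000030793, chr7:127989708-127993867, reverse strand) had 8.32 FPKM from 499 fragments (7.62 to 9.08), or 0.531 times *Nlrp3* (0.476 to 0.591). This place below the sensor depends on the gene model. The annotated exons of *Pycard* cover 3800 bases and its coding sequence 579, and by coding length *Pycard* was 2.66 times as high as *Nlrp3*.

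The protease was the highest of its neighbours. *Casp4*, known in mice as caspase-11 and activated by lipopolysaccharide inside the cell, starts 10.3 kb after *Casp1* and had 5.04 FPKM (4.49 to 5.65), and *Casp12* had 0.231 FPKM. *Casp1* was 4.25 times as high as *Casp4* (3.68 to 4.92), and 1.59 times by coding length. Of the 7 genes fixed for inflammatory caspases and membrane rupture, 5 reached 1 FPKM, where 46.8% of the protein-coding genes did. By exon length the highest was *Gsdmd*, the pore-forming target of caspase-1, at 39.7 FPKM (37.8 to 41.8), followed by *Ninj1*, which acts in plasma membrane rupture, at 35.4 FPKM (33.1 to 37.8). By coding length *Ninj1*, at 88.2 FPKM, was above *Gsdmd*, at 64.7 FPKM. *Casp8* had 22.0 FPKM, *Gsdme* 3.63 FPKM and *Gsdma* 0.0465 FPKM.

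Other sensors were mostly below *Nlrp3*. Of 14 further sensor and cofactor genes, 10 reached 1 FPKM (46.8% of the protein-coding genes did) and the median was 3.30 FPKM. By exon length 1 of them was above *Nlrp3*, and by coding length 3 were. That gene, *Naip2*, whose product senses the inner rod protein of a bacterial secretion system, had 18.5 FPKM (17.6 to 19.5). The *Naip* genes are near copies of each other, so that the share of fragments given to each is uncertain. *Mefv*, the pyrin gene, had 13.4 FPKM (12.4 to 14.4) and *Nek7*, a kinase that NLRP3 needs, 12.4 FPKM (11.8 to 13.1). *Nek7* was above *Nlrp3* by the longest transcript, at 17.4 against 15.8 FPKM, and by coding length, at 101 against 20.5 FPKM. The lowest were *Nlrp6* at 0.0249 and *Nlrp10* at 0.0985 FPKM, from 2 and 7 fragments.

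Below the receptor, all 17 genes of the shared signalling path to NF-kB reached 1 FPKM, where 46.8% of the protein-coding genes did. The median of the 17 was 13.9 FPKM. The highest was *Nfkbia*, the inhibitor of NF-kB and itself a target of it, at 98.6 FPKM (94.8 to 103). *Tab2*, an adaptor of the kinase TAK1, had 36.8 FPKM (35.6 to 38.0), and *Rela*, an NF-kB subunit, had 33.5 FPKM. By exon length the lowest were *Ikbkb* at 6.47 and *Traf6* at 6.81 FPKM. The exons of *Ikbkb* cover 19078 bases and its longest transcript 4845, and by the longest transcript it had 25.5 FPKM and was no longer among the lowest. By exon length every one of the 17 was above *Il1r1* and *Il1rap*. Toll-like receptors use most of this path as well, and 10 of 12 such receptor genes were at 1 FPKM or above (median, 4.55 FPKM). The highest of them, *Tlr13* at 27.0 FPKM (25.8 to 28.2) and *Tlr2* at 23.7 FPKM (22.3 to 25.1), were above *Il1r1* and below *Il1r2*, as was *Tlr8* at 7.24 FPKM. *Tlr3* and *Tlr11*, the lowest, had 0.268 and 0.310 FPKM.

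Of 15 genes that IL-1 commonly induces, 10 reached 1 FPKM, where 46.8% of the protein-coding genes did. The median of the 15 was 5.99 FPKM. *Cxcl2*, a neutrophil chemokine, had 112 FPKM (108 to 115) and was 0.906 times *Il1b* (0.865 to 0.949). By coding length it was instead 2.64 times as high as *Il1b*. The chemokine genes *Ccl3* and *Ccl4* had 64.7 FPKM (60.3 to 69.4) and 28.8 FPKM (25.7 to 32.2). The lowest were *Csf3*, the G-CSF gene, listed at 0 (limit, 0.135 FPKM), and *Nos2* at 0.0287 FPKM from 2 fragments. These genes answer to other signals as well, and no sample with and without IL-1 is in the data. The 3 genes of neutrophil serine proteases that can also cut IL-1 family cytokines were higher than these by exon length, with *Elane* at 781 FPKM (768 to 795), *Prtn3* at 379 FPKM (372 to 387) and *Ctsg* at 241 FPKM (233 to 248). *Elane* was 6.34 times as high as *Il1b* (6.11 to 6.58), and 3.32 times by coding length. By coding length *Cxcl2*, at 770 FPKM, was above *Ctsg*, at 318 FPKM.

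**Figure D4:**
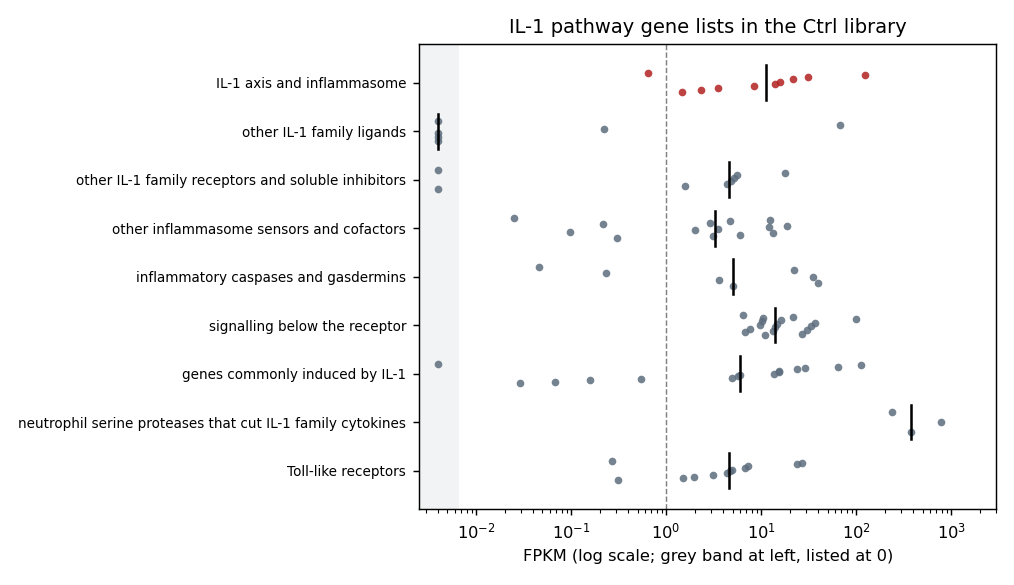
FPKM (log axis) of every gene in the 10-gene set (red) and in the lists around it (grey); black bars are list medians, the dashed line is 1 FPKM, the vertical offset of points carries no meaning, and points in the grey band are listed at 0. The signalling genes all lie right of the line, while 4 of the 6 other ligand genes are listed at 0.

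The library's marker levels give the setting in which the 10 genes were read. The 11 neutrophil markers held 12.6% of the summed FPKM and the 10 genes together 0.0517%. Mature neutrophils and monocytes are known sources of IL-1β, IL-1R2 and IL-1Ra. The lists of the neutrophil lineage and of monocytes and macrophages were present in full, but the former does not separate mature neutrophils from precursors. The part of neutrophils and monocytes in the levels of *Il1b*, *Il1r2* and *Il1rn* was not tested. Lists of other lineages were also present. All 5 erythroid markers, led by *Hba-a1* at 25466 FPKM, summed to 42452 FPKM, and all 4 eosinophil markers, led by *Prg2* at 2766 FPKM, to 3104 FPKM. All 6 B cell markers summed to 392 FPKM with *Cd79a* at 173 FPKM, and all 5 of basophils and mast cells to 294 FPKM with *Prss34* at 168 FPKM. T cell markers (6 of 6 at 1 FPKM) summed to 36.4 FPKM with *Lck* at 11.1 FPKM, and NK cell markers (5 of 5) to 84.2 FPKM with *Nkg7* at 70.6 FPKM. Dendritic cell markers (5 of 6) summed to 33.4 FPKM with *Siglech* at 17.3 FPKM, and megakaryocyte markers (5 of 7) to 87.1 FPKM with *Ppbp* at 38.7 FPKM and *Gp1bb* listed at 0. Endothelial and stromal markers (4 of 6) summed to 20.4 FPKM with *Pecam1*, also present on leukocytes, at 10.6 FPKM. Of all protein-coding genes, 46.8% reached 1 FPKM. With 1 library there is no pattern over samples by which the 10 genes could be tied to any of these lists.

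**Figure D5:**
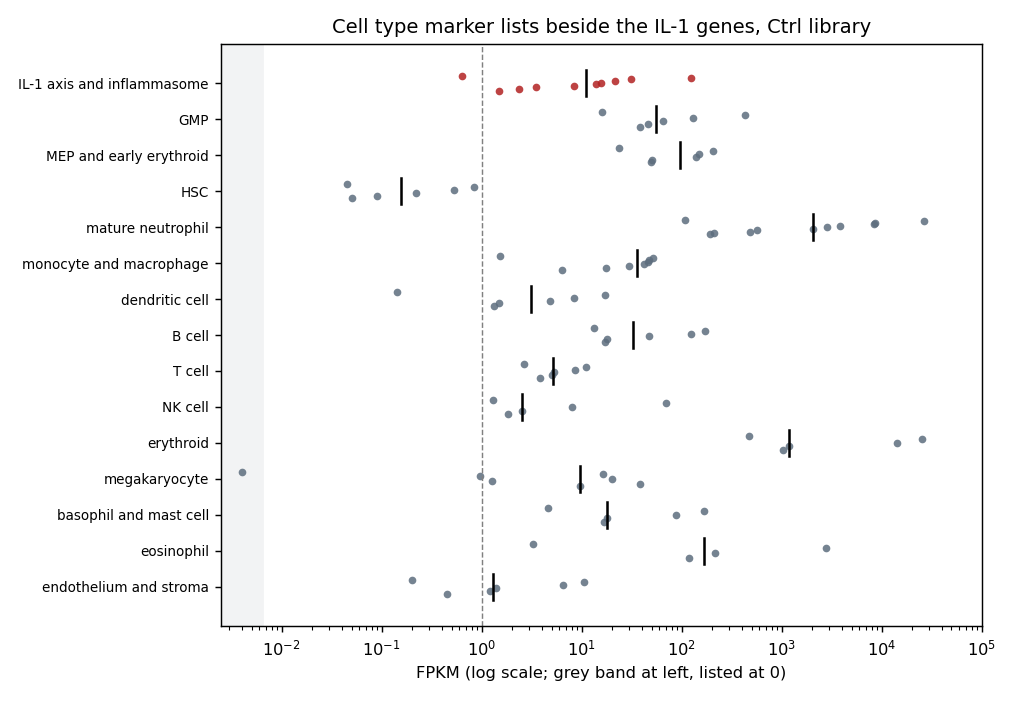
FPKM (log axis) of the 10 genes (red) and of the cell type marker lists (grey) in the Ctrl library, with list medians as black bars, the dashed line at 1 FPKM and genes listed at 0 in the grey band; vertical offsets carry no meaning. The neutrophil and erythroid medians, 2069 and 1189 FPKM, lie far right of the 11.1 FPKM median of the 10 genes, and all 6 HSC markers lie below 1 FPKM.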

How the data were processed

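Total RNA of 1 sorted Ctrl sample was extracted with TRIzol and sequenced on the HiSeq platform of Illumina. The values deposited by the authors are FPKM, 1 per Ensembl gene, and the submitters' processing notes name HISAT2 2.0.5, featureCounts 1.5.0-p3 and the build mm10. Their settings, the annotation release and the use of strand are not given in the sources used here. Names, positions and exon lengths were taken from GENCODE M21 on GRCm38, the assembly behind mm10, which held 54495 of 54532 identifiers. The 4 IL-36 symbols were matched by RefSeq synonym. FPKM times exon length was within 0.01 of a whole multiple of 1 step for 96.4% of the 21313 genes above 0, after a check on simulated data. *Nlrc4*, *Rela*, *Csf1r* and *Prss34* were exceptions and have no interval. Multiples were read as fragments for Wilson intervals and for exact (Clopper-Pearson) intervals of ratios. No test was possible with 1 library. A gene was called present at 1 FPKM.

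The 10 genes, the gene and marker lists and the naming rule were chosen with earlier results of these data known. The rule names all 10 genes, at most the 3 highest and 2 lowest of longer lists and all genes of lists of 8 or fewer, each marker list's highest gene, markers listed at 0, and *Kit*. The alternatives were other minimums, totals and gene lengths. The coding length was chosen after seeing the data. The scripts ran in Python 3.11.15 with scipy 1.17.1, matplotlib 3.10.9, numpy 2.4.6 and pandas 2.3.3.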

Additional observations from a re-analysis of the deposited data

How the results depend on the processing

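No paired analysis was possible because there is a single group with 1 library. At a minimum of 10 FPKM in place of 1 FPKM, which is lower by construction, the counts were 5 of the 10 genes, 1 of the other receptor genes, 4 of the other sensors, 3 of the caspase and gasdermin genes and 2 of the Toll-like receptors. At 0.1 FPKM and at 10 recovered fragments, the other ligand genes numbered 2 in place of 1. The median of the 10 genes, 11.1 FPKM, was 12.2 without the 10 most abundant genes in the total, 12.1 by the longest transcript and 23.6 by coding length. The ratio of *Il1b* to *Il1rn*, 8.81, was 3.04 in undivided fragments, 5.72 by the longest transcript and 2.01 by coding length. That of *Il1r2* to *Il1r1*, 21.0, was 6.30, 25.8 and 8.85 under these, and that of *Il1b* to *Il18*, 35.2, was 65.1 in undivided fragments. The ratio of *Casp1* to *Nlrp3*, 1.37, turned to 0.504 in undivided fragments, and that of *Pycard* to *Nlrp3*, 0.531, turned to 2.66 by coding length, both from the lengths alone. Among further ratios, tried with other lengths after seeing the data, that of *Cxcl2* to *Il1b*, 0.906, turned to 2.64 by coding length. The share of the 10 genes in the summed FPKM, 0.0517%, was 0.0698% without the 10 most abundant genes, 0.0538% without mitochondrial genes and 0.0498% in recovered fragments. The ratio of *Il1b* to *Il1a* stayed within its counting interval under every length tried. Depth limits *Il1a*, with 20 fragments, and the spread between mice is unknown.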
